A study of Homo sapiens with 21 samples.

Results

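Transcripts of cardiac muscle genes were present in these cultures of pancreatic islet cells, and 33 such genes are described here in all 21 libraries. They encode proteins of the thick and thin filaments, proteins of the Z-disc and M-band, calcium-handling proteins, myoglobin and muscle creatine kinase, the natriuretic peptides, and transcription factors of the heart. The genes were taken by symbol, and all 33 were found among the 62699 genes of the count table. Of these, 31 passed the filter on low counts and were tested. MYL2 had 0 counts in every library, which allows up to 3 counts or 0.0464 to 0.0907 CPM (read counts scaled to library size), depending on the library. CASQ2 had 3 counts over all libraries.

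RNA was sequenced from islet cells grown in culture out of H1, a human embryonic stem cell line. The cells were unedited (WT) or are labelled as knockouts of both copies of 1 gene, ISL1 (ISL1-/-), PAX6 (PAX6-/-) or PDX1 (PDX1-/-), each of which encodes a transcription factor of pancreatic endocrine cells. Cells of every group received a lentivirus on day 11, either ISL1-IRES2-BFP or a BFP control, and on day 18 those showing blue fluorescent protein (BFP) were sorted for RNA. The 8 groups are BFP-labelled and ISL1-labelled WT (2 libraries each), BFP-labelled and ISL1-labelled ISL1-/- (3 each), BFP-labelled and ISL1-labelled PAX6-/- (3 each), BFP-labelled PDX1-/- (3) and ISL1-labelled PDX1-/- (2). The libraries of a group are described as biological replicates. The number of knockout clones and the promoter of the vectors are not given in the sources used here. Each library name holds a number after the vector: 7 libraries carry the number 1, 7 the number 2, 6 the number 3 and 1 the number 4. A further index closes the name and runs in a separate block for each of the numbers 1, 2 and 3. The index of the library numbered 4 lies between the blocks of the numbers 3 and 1. The labels do not say what a shared number or the index stands for. In 3 libraries the number differs from that in the sample title.

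Heart muscle contracts when myosin of the thick filament pulls on actin of the thin filament, and the troponin complex on the thin filament switches this on when the sarcoplasmic reticulum releases calcium. Atrial and early embryonic heart muscle is known for MYH6, MYL7, MYL4 and NPPA, and ventricular muscle for MYL2 and, in humans, MYH7. Heart muscle arises from mesoderm under factors such as NKX2-5, TBX5, TBX20, HAND1 and HAND2, and ISL1, the gene edited in one of the lines, is itself a known factor of heart progenitors, whereas islet cells arise from endoderm.

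Totals per library ran from 36.8 M to 60.2 M counts (median 50.4 M). Summed over 12 pan-endocrine markers the level was 13110 to 58550 CPM, and over 5 islet hormones 1837 to 132300 CPM, so every library carried transcripts of the labelled tissue. ISL1 transcripts were at 73.7 to 82.4 CPM in BFP-labelled and 71.6 to 96.8 CPM in ISL1-labelled ISL1-/- libraries, against 306 to 519 and 337 to 361 CPM in the WT groups. They did not separate the 2 vectors in any genotype. PAX6 transcripts were at 99.5 to 166 CPM in BFP-labelled PAX6-/- against 140 to 232 in BFP-labelled WT, and PDX1 transcripts at 103 to 116 CPM in BFP-labelled PDX1-/- against 80 to 102, so neither gene was clearly lower in its own knockout. The edits are not given in the sources used here, so it is not known whether transcript counts can show them. The labels of the vectors and of the PAX6-/- and PDX1-/- lines are thus unchecked by these counts, and groups are named by their labels throughout. Library 3 of ISL1-labelled PAX6-/- and library 4 of ISL1-labelled PDX1-/- stand apart, with 3.16% and 3.84% of counts from mitochondrial genes against 1.28% to 1.93% in the others. Results that rest on them are given with and without them.

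The cardiac genes together ranged from 60.6 CPM in library 1 of BFP-labelled PAX6-/- to 851 CPM in library 3 of BFP-labelled ISL1-/-. The latter library was the highest of all 21 for 20 of the 31 tested genes. Divided by exon length, the leading genes of that library were NPPA at 95.4 CPM per kilobase, MYL7 at 70.9, ACTC1 at 51.4, MYH6 at 25.5 and MYL4 at 14.2. NPPA encodes atrial natriuretic peptide, MYL7 and MYL4 the atrial myosin light chains, ACTC1 cardiac actin and MYH6 the alpha myosin heavy chain. MYH7, the beta myosin heavy chain, stayed at 1.99 CPM in the same library, where MYH6 had 93.1 times its counts. Over all libraries MYH6 had 6.10 to 872 times the counts of MYH7. The ratio of 872 comes from library 2 of ISL1-labelled PAX6-/-, where MYH7 had 1 count, and the next highest was 125. However, 13.6% of the 50-base windows of MYH6 transcripts are shared with MYH7, and reads from these windows could belong to either gene. MYL2, the ventricular regulatory light chain, stayed at 0 counts, while MYL3, a light chain of ventricle and slow skeletal muscle, was present in every library at 3.40 to 155 CPM. Because each library is bulk RNA from many cells, fewer cells of a type and less RNA per cell cannot be told apart.

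**Figure D1:**
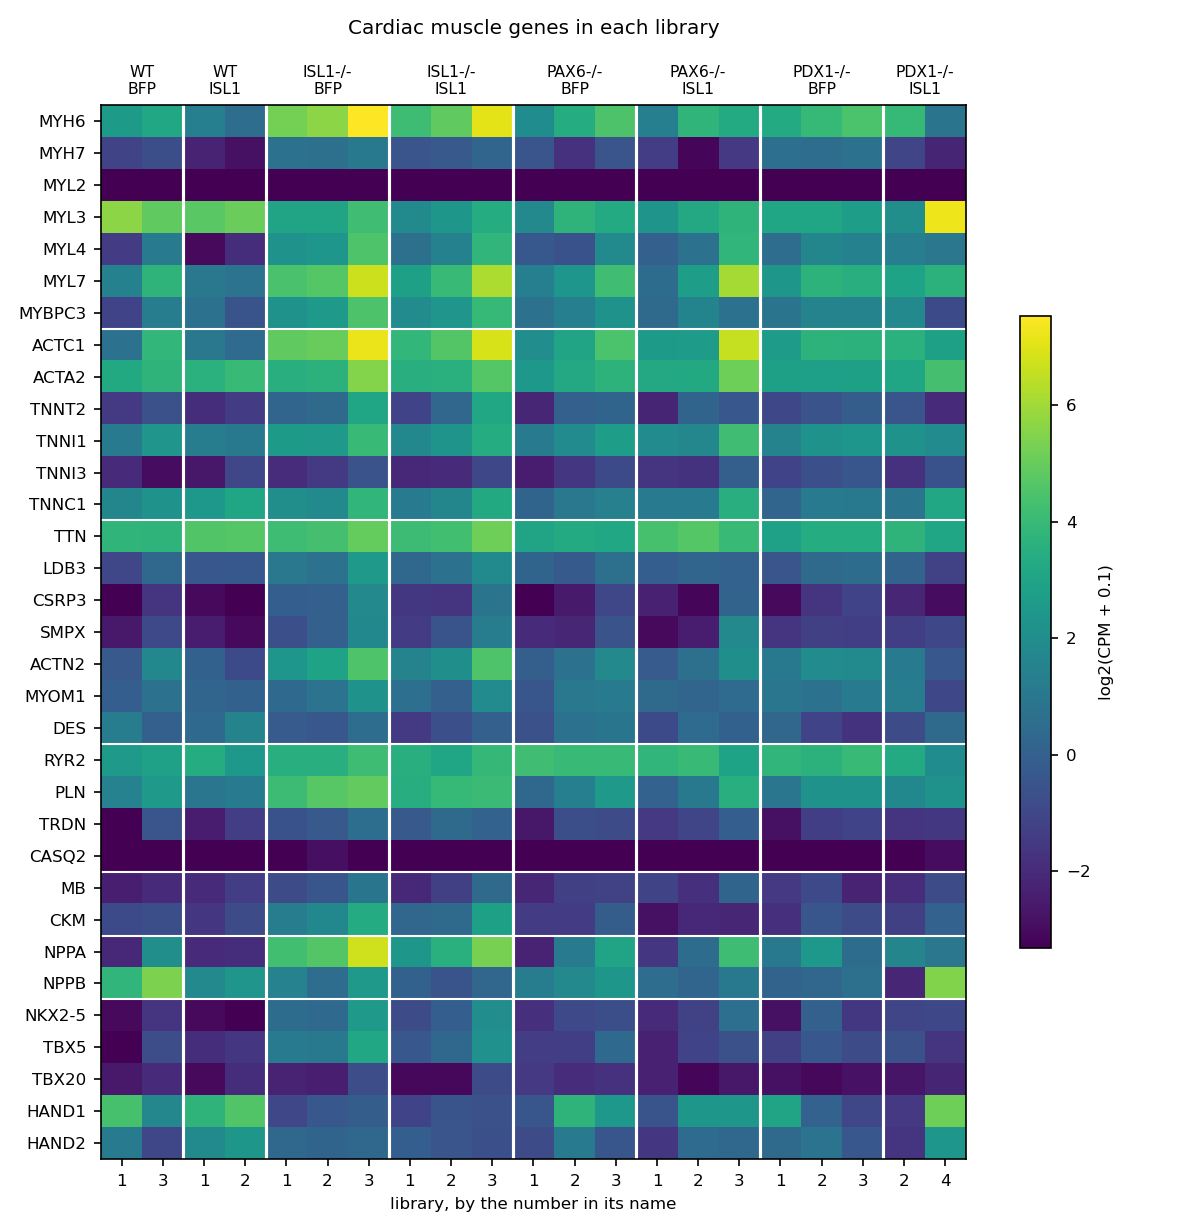
Level of each of the 33 cardiac genes (rows, ordered by role) in each of the 21 libraries (columns, ordered by group, then library-name number), as log2 of CPM plus 0.1. The columns numbered 3 of both ISL1-/- groups are the brightest for most filament genes, while MYL3, NPPB and HAND1 have their highest value in library 4 of ISL1-labelled PDX1-/-.

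For most cardiac genes, libraries numbered 3 had higher levels than libraries numbered 1 once the group was taken into account. In a model with a term for every group and every number, 5 of the 31 tested genes rose in number 3 against number 1 and none fell, where 0.0464% of all 25884 tested genes were called (12 genes, edgeR, p adjusted over all tested genes under 0.05) and 0.0348% were called higher. The 5 were ACTC1, MYL4, MYL7, ACTN2 and TNNI1, all components of the sarcomere. The median log2 fold change was 1.58 over the 31 genes and 0.01 over all tested genes, and 29 of the 31 values were above 0. At an unadjusted p under 0.05 stood 25 of the 31 genes and 3785 of all genes. The cardiac genes were chosen with earlier results of these data known, so the shares over all genes describe the set and do not test it. The number 1 is carried by 7 libraries and the number 3 by 6, and the model took out the 8 groups. The comparison thus rests directly on the 6 groups that hold both numbers. ISL1-labelled WT has no library numbered 3, and ISL1-labelled PDX1-/- has none numbered 1 or 3.

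ACTC1, the actin of heart muscle thin filaments, shows the pattern most plainly. In BFP-labelled ISL1-/- it was at 29.3, 32.5 and 147 CPM in libraries 1, 2 and 3, and in ISL1-labelled ISL1-/- at 14.6, 24.6 and 116 CPM. In BFP-labelled PAX6-/- it was at 3.88, 8.05 and 22 CPM, and in ISL1-labelled PAX6-/- at 5.90, 6.05 and 96.2 CPM. Library 3 was thus the highest of its group in all 4 of these groups. In BFP-labelled WT it was at 1.54 CPM in library 1 and 14.3 in library 3, while in BFP-labelled PDX1-/- library 2 (12.9) and library 3 (12.5) were alike and above library 1 (6.17). In ISL1-labelled PDX1-/-, which has no library 3, it was at 12.2 CPM in library 2 and 7.08 CPM in library 4. The log2 fold change of number 3 against number 1 was 2.73 (SE 0.38, adjusted p 0.0168), or 6.65-fold.

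Among the thick filament genes, MYL7 and MYL4 rose with it. MYL7 was at 21.2, 25 and 103 CPM in BFP-labelled ISL1-/- libraries 1 to 3 and at 1.32, 6.54 and 66.5 CPM in ISL1-labelled PAX6-/-, and its log2 fold change was 2.88 (SE 0.44, adjusted p 0.0224). MYL4 was at 4.62, 5.13 and 23.2 CPM and at 0.892, 1.59 and 14.2 CPM in the same groups, for which the log2 difference was 2.75 (SE 0.36, adjusted p 0.0168). For both, library 3 was the highest of its group in 5 of 6 groups, the exception being BFP-labelled PDX1-/-. MYH6, at 1.84 (SE 0.38, adjusted p 0.0782), and MYBPC3, the myosin-binding protein of the thick filament, at 1.56 (SE 0.37, adjusted p 0.132), did not pass. MYH7 was close to level between the numbers at 0.23 (SE 0.33, adjusted p 0.722).

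The other thin filament genes and the Z-disc genes add TNNI1 and ACTN2 to the calls. TNNI1, the slow skeletal troponin I that embryonic heart also uses, was the highest in library 3 in all 6 groups that hold one, with 5.97, 5.67 and 16.3 CPM in BFP-labelled ISL1-/- and 2.22 against 4.90 CPM in BFP-labelled WT, and its log2 fold change was 1.51 (SE 0.23, adjusted p 0.0242). ACTN2, the alpha-actinin that anchors thin filaments at the Z-disc, was at 5.08, 7.80 and 23.4 CPM and at 2.76, 4.14 and 23.1 CPM in the BFP-labelled and ISL1-labelled ISL1-/- groups, for which the log2 difference was 2.06 (SE 0.30, adjusted p 0.0224). All 6 thin filament genes had values above 1, from 1.20 for ACTA2, which smooth muscle shares, to 2.73 for ACTC1. TNNT2, cardiac troponin T, was at 0.350, 1.11 and 8.73 CPM in ISL1-labelled ISL1-/- and 0.124, 0.911 and 1.04 CPM in BFP-labelled PAX6-/-, with a value of 2.58 (SE 0.52, adjusted p 0.0768). Of the 7 Z-disc, titin and intermediate filament genes the largest values were those of CSRP3, a muscle LIM protein, at 2.98 (SE 0.53, adjusted p 0.0578), and SMPX at 2.90 (SE 0.59, adjusted p 0.0777), and the smallest were those of the giant spring protein titin (TTN, 0.37) and desmin (DES, 0.36).

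**Figure D2:**
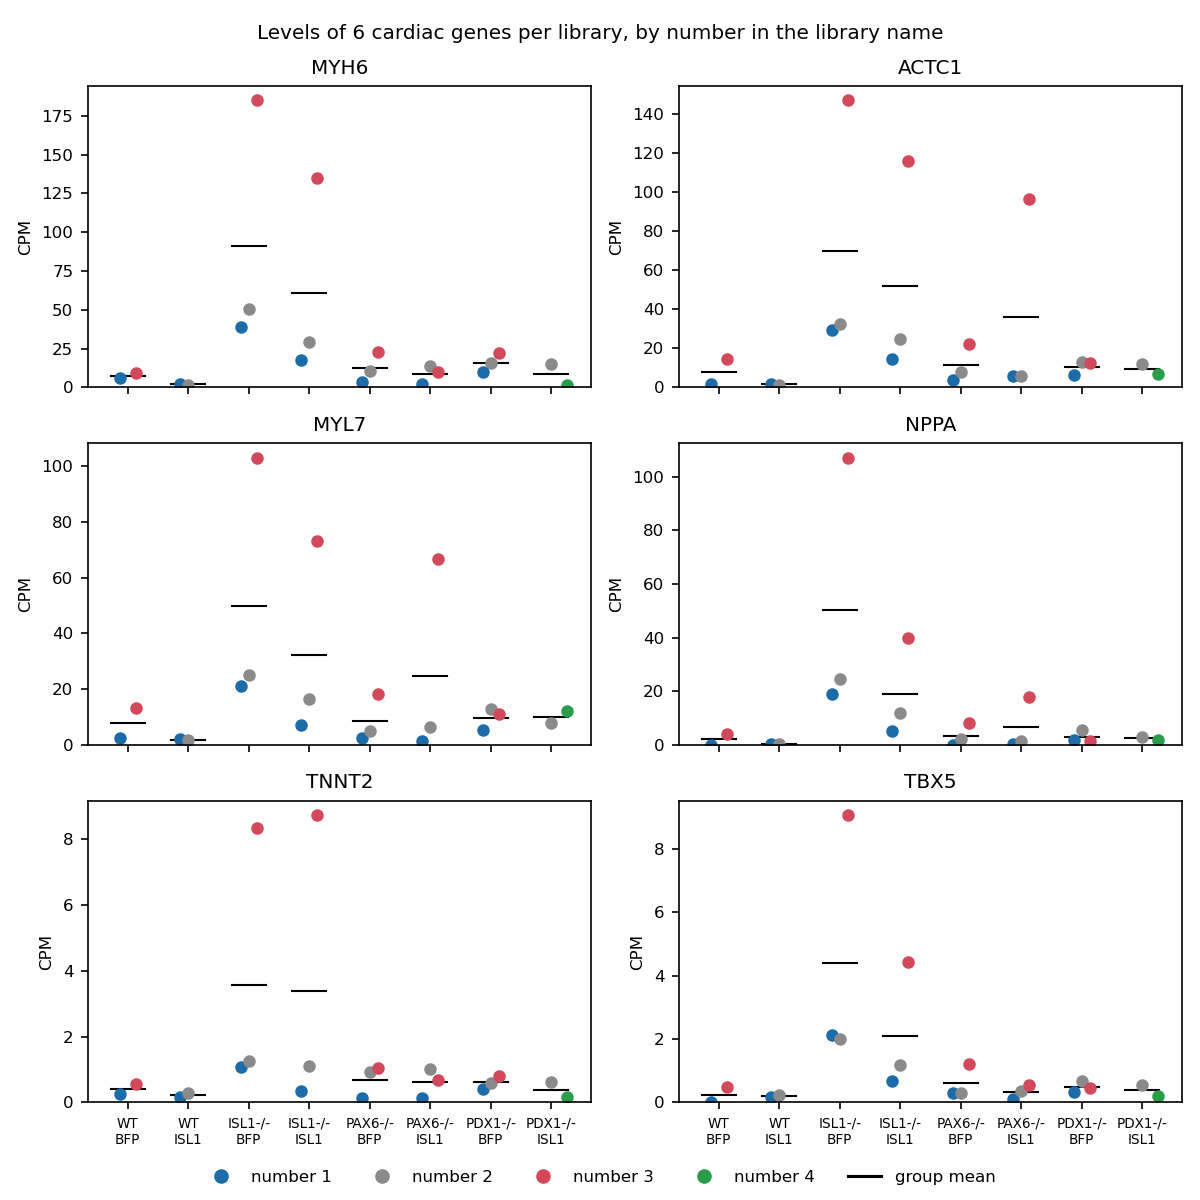
CPM (linear axes, each starting at 0) of MYH6, ACTC1, MYL7, NPPA, TNNT2 and TBX5 in each library, by group, with the colour giving the number in the library name and a bar at the group mean. In both ISL1-/- groups the library numbered 3 lies far above the libraries numbered 1 and 2, as for ACTC1 at 147 against 29.3 and 32.5 CPM.

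The promoters of the called genes were read from the RefSeq promoter table (GRCh38.p14), which holds 24 of the 33 genes; MYL4 and TNNI1 are not among these, so ACTC1, MYL7 and ACTN2 are shown, with MYH6 as the member with the highest single value. Each line gives the 250 bases before the annotated start. Capitals mark a CArG box, the site that serum response factor is known to bind, or the motif CATTCC of TEAD factors, here in its reverse form.
ACTC1 (chr15:34795550-34795799, minus strand): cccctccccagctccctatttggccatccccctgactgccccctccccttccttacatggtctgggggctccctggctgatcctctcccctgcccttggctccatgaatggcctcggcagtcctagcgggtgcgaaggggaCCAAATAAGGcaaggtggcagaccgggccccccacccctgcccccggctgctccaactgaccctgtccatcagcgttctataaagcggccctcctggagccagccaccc
MYL7 (chr7:44141333-44141582, minus strand): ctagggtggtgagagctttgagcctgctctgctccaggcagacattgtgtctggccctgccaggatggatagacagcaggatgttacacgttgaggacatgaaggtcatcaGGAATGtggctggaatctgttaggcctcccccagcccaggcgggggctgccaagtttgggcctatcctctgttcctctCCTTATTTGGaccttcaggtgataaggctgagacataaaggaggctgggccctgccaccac
ACTN2 (chr1:236686249-236686498, plus strand): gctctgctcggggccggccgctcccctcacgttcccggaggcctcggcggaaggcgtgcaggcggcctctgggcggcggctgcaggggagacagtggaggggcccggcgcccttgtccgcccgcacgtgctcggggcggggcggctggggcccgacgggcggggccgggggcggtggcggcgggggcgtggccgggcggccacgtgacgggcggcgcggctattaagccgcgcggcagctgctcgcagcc
MYH6 (chr14:23408274-23408523, minus strand): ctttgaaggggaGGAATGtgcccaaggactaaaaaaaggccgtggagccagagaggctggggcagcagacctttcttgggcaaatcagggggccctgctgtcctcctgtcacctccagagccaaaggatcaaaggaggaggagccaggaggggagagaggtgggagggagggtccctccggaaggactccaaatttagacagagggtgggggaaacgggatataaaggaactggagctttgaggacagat

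ACTC1 and MYL7 each hold 1 CArG box in these windows, 109 to 100 and 61 to 52 bases before the start. Over the whole promoter windows of 300 bases, which reach 50 bases past the start, 5 of the 32 promoters of the 24 genes hold a CArG box (those of ACTC1, MYL7, LDB3 and MYOM1) against 1.29% of all 35116 promoters of the table, and 5 of the 32 hold a MEF2 site (those of MYBPC3, TTN, SMPX, CASQ2 and TBX5) against 2.99%. The motif AGATAA of GATA factors is in 7 of the 32 and 10.3% of all promoters, TNAAGTG of NKX2-5 in 1 and 10.2%, AGGTGT of T-box factors in 4 and 11.4%, and CATTCC in 7 and 14%. Both strands were searched, and some genes have several promoters in the table. The RefSeq start of ACTN2 lies 22358 bases from the first exon of the gene in the count table.

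Outside the filaments, no gene was called between the numbers 3 and 1, although most values were of the same size. NPPA had the largest value of all 31 genes, 3.48 (SE 0.66, adjusted p 0.0602), with 19.1, 24.7 and 107 CPM in BFP-labelled ISL1-/- and 0.132 against 4.02 CPM in BFP-labelled WT libraries 1 and 3. Phospholamban (PLN), which restrains the calcium pump of the sarcoplasmic reticulum, was the highest in library 3 in all 6 groups at 1.58 (SE 0.32, adjusted p 0.0795), and triadin (TRDN) had 1.87 (SE 0.44, adjusted p 0.132). Muscle creatine kinase (CKM) had 1.77 (SE 0.35, adjusted p 0.0768) and myoglobin (MB) 1.58 (SE 0.46, adjusted p 0.206). RYR2, the calcium release channel that endocrine cells also express, stood at 0.08 (SE 0.21, adjusted p 0.858), with 11.0, 11.1 and 17.7 CPM in BFP-labelled ISL1-/- and 18.4, 16.5 and 16.5 CPM in BFP-labelled PAX6-/-.

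The transcription factors were split. TBX5 and NKX2-5, core factors of the heart, had values of 2.20 (SE 0.38, adjusted p 0.0578) and 2.40 (SE 0.52, adjusted p 0.107). TBX5 was at 2.12, 2.01 and 9.07 CPM in BFP-labelled ISL1-/- libraries 1 to 3 and NKX2-5 at 1.35, 1.21 and 5.68 CPM, whereas in BFP-labelled PDX1-/- both were highest in library 2, at 0.679 and 0.911 CPM. TBX20 stayed at or below 0.498 CPM in all libraries. HAND1 and HAND2 had values of -0.24 (SE 0.91) and -0.28 (SE 0.43), and HAND2 was the only tested gene for which library 3 was the highest of no group.

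**Figure D3:**
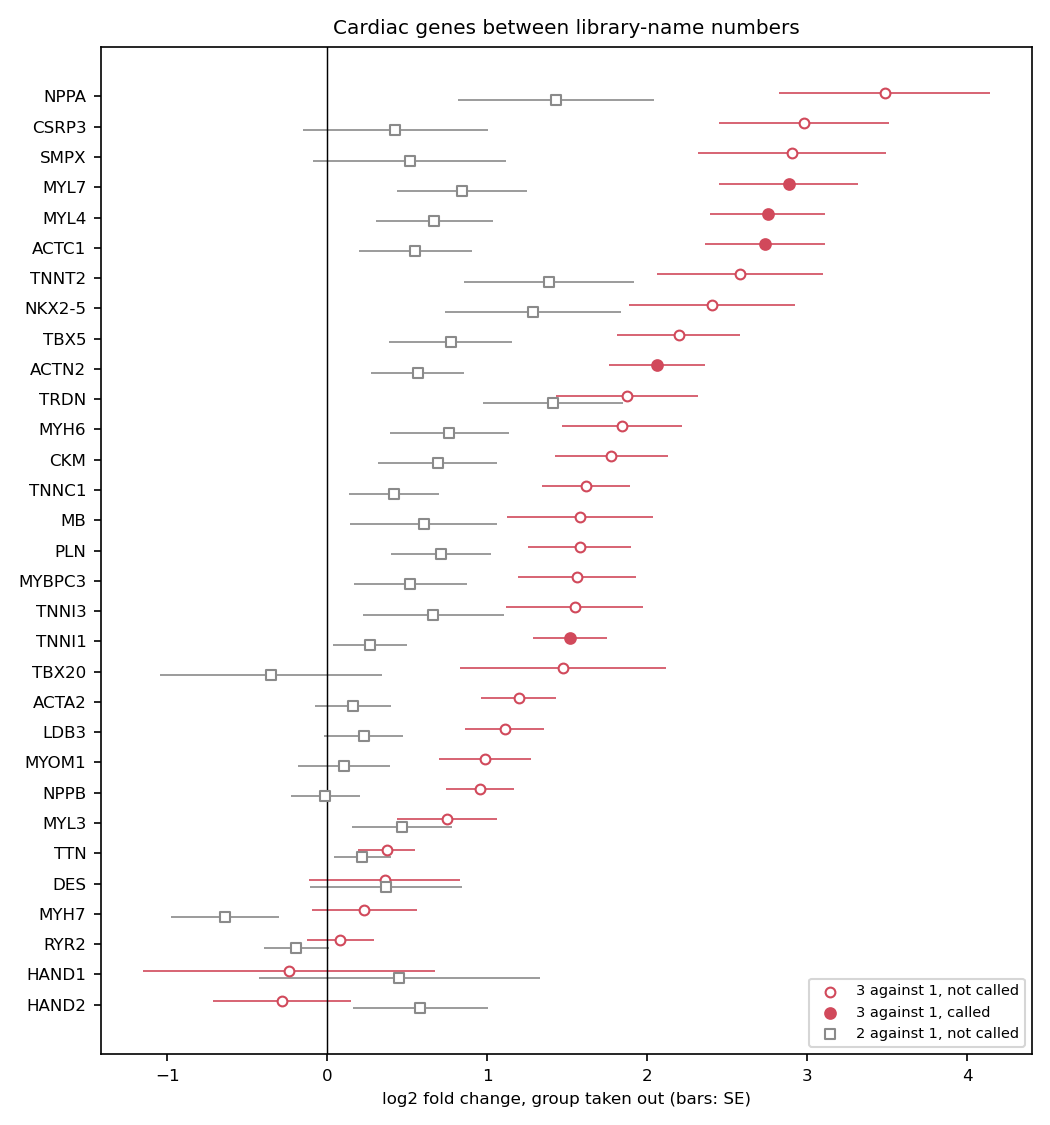
Log2 fold change of the 31 tested cardiac genes between libraries numbered 3 and 1 (circles, filled where called) and between 2 and 1 (squares, none called), with the group taken out and bars giving the standard error. Most circles lie right of the squares, with NPPA at 3.48 and HAND2 at -0.28 as the ends of the range.

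Counted group by group, library 3 was the highest of its group for 30 of 31 genes in BFP-labelled ISL1-/- (36.8% of all tested genes), 28 in ISL1-labelled ISL1-/- (36.5%), 25 in BFP-labelled WT (48.6%), 24 in BFP-labelled PAX6-/- (34%), 20 in ISL1-labelled PAX6-/- (43%) and 16 in BFP-labelled PDX1-/- (28.5%). In all 6 groups at once it was the highest for 6 genes, namely ACTA2, TNNI1, CSRP3, MYOM1, PLN and NPPB, against 0.912% of all tested genes. The median ratio of library 3 to the mean of the others of its group was 3.63 and 3.57 in the BFP-labelled and ISL1-labelled ISL1-/- groups, 1.89 and 2.41 in PAX6-/-, 1.92 in BFP-labelled WT and 1.20 in BFP-labelled PDX1-/-. Over all tested genes these medians were between 0.941 and 0.997.

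The numbers 2 and 1 were closer. None of the 31 genes was called in edgeR (0% of all tested genes), 5 had an unadjusted p under 0.05, and DESeq2 and limma also called 0. Their median log2 fold change was 0.52, with 27 of 31 values above 0, against -0.01 over all tested genes. Between the numbers 3 and 2 edgeR again called 0 of the 31 genes and 0% of all genes, with 21 genes at an unadjusted p under 0.05 and a median of 1.04, whereas DESeq2 called 11 genes and limma 19, all higher in number 3. Without library 3 of ISL1-labelled PAX6-/-, or library 2 or 3 of BFP-labelled PDX1-/-, edgeR called 4, 7 and 11. In the joint test over the 3 numbers the same 5 genes as above were called, where 0.0386% of all tested genes were; leaving out single libraries gave 0 in 14 of the 21 fits, with 12, 9 and 11 without the same 3 libraries as before and 3 without either library of ISL1-labelled WT.

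The calls between the numbers depend on single libraries. Of the 21 fits that each left out 1 library, 8 called none of the 31 genes in number 3 against 1: those without library 1 or 3 of BFP-labelled WT, of BFP-labelled ISL1-/- or of ISL1-labelled ISL1-/-, without library 3 of BFP-labelled PAX6-/- and without library 1 of ISL1-labelled PAX6-/-. Without library 1 of BFP-labelled PDX1-/- 2 were called and without library 1 of BFP-labelled PAX6-/- 3, whereas it was 9 and 16 without libraries 2 and 3 of ISL1-labelled PAX6-/-, and 10 and 15 without libraries 2 and 3 of BFP-labelled PDX1-/-. The median over the genes was 1.44 to 1.74 in all 21 fits. Without the 6 ISL1-/- libraries no gene was called, at a median of 1.35 and with 2.77 for ACTC1 (adjusted p 0.536). With the number of the sample title in place of that in the library name no gene was called either, at a median of 1.71.

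Markers of other cell types were measured beside these genes. Over 13 fibroblast and mesenchyme markers the summed level had a median of 3361 CPM (2360 to 6473) in number 1 and 2434 CPM (381.9 to 3279) in number 3, and over 11 smooth muscle markers 114.5 CPM (83.55 to 272.6) and 124.6 CPM (65.23 to 238.8). Endothelial, epicardial and epithelial sums overlapped between the numbers likewise, and 0 genes of any of these lists were called. The largest part of the fibroblast sum was FN1, with a median of 2450 CPM over the 21 libraries against 95.3 CPM for COL3A1. That of the endothelial sum was EGFL7, with a median of 50.1 CPM against 4.02 CPM for KDR. These 2 sums thus mainly follow 1 gene each and are a poor measure of a cell type. Pan-endocrine markers had 23700 CPM (13490 to 56030) in number 1 and 31600 CPM (23590 to 52210) in number 3, with 8 of 12 at an unadjusted p under 0.05 and 0 called. The summed level of the 5 islet hormones had a median of 4459 CPM (2384 to 43600) in number 1 and 12180 CPM (1837 to 57190) in number 3, with a median log2 fold change of 0.98, all 5 values above 0, 2 at an unadjusted p under 0.05 and 0 called. Of 22 skeletal muscle genes 12 stayed below 1 CPM in every library, among them the muscle-determining factors MYOD1, MYOG and MYF6, and MYF5 had 0 counts. Others of the list were present, with ACTA1 at 1.65 to 49.8 CPM, RYR1 at 3.11 to 10.4 and CHRNA1 at 0.306 to 8.73. The summed level of the list had a median of 26.96 CPM (20.11 to 39.76) in number 1 and 26.08 CPM (20.52 to 34.58) in number 3. Its highest value was 73.68 CPM, in library 4 of ISL1-labelled PDX1-/-. The part of cell composition in the difference between the numbers was not tested.

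Of 34 tested other heart and striated muscle genes, UNC45B, a myosin chaperone, rose by 2.65 in log2 (SE 0.33, adjusted p 0.0168) and TECRL, a gene of the cardiac sarcoplasmic reticulum, by 2.78 (SE 0.41, adjusted p 0.0224), 17 had an unadjusted p under 0.05, and the median was 0.48. Among 24 other heart field transcription factors 0 were called, and the median was -0.18. Over the 21 libraries the genes most like the mean of the 31 cardiac genes, by Pearson's r of log2 CPM, were HSPB7 (0.928), LRRC10 (0.919), FITM1 (0.919), TECRL (0.912) and ASB2 (0.904), followed by CMTM5, ENSG00000289101, GJA5, UNC45B and SYNPO2L (0.831 to 0.876). These points share libraries of unequal cardiac content, so the values describe and do not test. HSPB7, a small heat shock protein of heart muscle, was at 3.49, 4.40 and 14.2 CPM in BFP-labelled ISL1-/- libraries 1 to 3. In the 15 libraries of the other genotypes it was at 0.446 to 6.29 CPM, so these overlapped. GJA5, the atrial gap junction protein connexin 40, was at 4.32, 5.81 and 23.8 CPM in the same ISL1-/- libraries. It was at most 1.65 CPM in the 15 libraries of the other genotypes.

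Among the BFP-labelled libraries, those of ISL1-/- had the highest levels for 15 of the 31 genes. All 3 BFP-labelled ISL1-/- libraries lay above both BFP-labelled WT libraries for 21 of the 31 genes (26% of all tested genes) and below them for 3 (25.7%). The 15 genes for which they lay above all 8 other BFP-labelled libraries (2.51% of all tested genes) were MYH6, MYL4, MYL7, ACTC1, TNNT2, TTN, LDB3, CSRP3, ACTN2, PLN, MB, CKM, NPPA, NKX2-5 and TBX5. For BFP-labelled PAX6-/- only 2 genes lay wholly above WT (25.1% of all) and 4 below (23.4%), and for BFP-labelled PDX1-/- 5 above (27%) and 6 below (25.4%).

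Against BFP-labelled WT, 2 of the 31 genes rose in BFP-labelled ISL1-/-, where 5.59% of all tested genes were called, with 1.67% of all genes higher. The count of calls, 2 of 31, is thus near the background in both directions together. CKM rose by 3.46 in log2 (SE 0.95, adjusted p 0.0394), from 0.440 and 0.514 CPM to 2.30, 3.26 and 10.2 CPM. TBX5 rose by 4.28 (SE 1.22, adjusted p 0.0479), from 0 and 0.484 CPM to 2.12, 2.01 and 9.07 CPM. With 0 counts in 1 WT library the size of this change is uncertain, and it ran from 3.18 to 10.9 when 1 library was left out. The median log2 fold change was 2.06 over the 31 genes and 0.02 over all genes, and 19 of the 31 had an unadjusted p under 0.05. Among the 28 genes with counts in library 1 of BFP-labelled WT, the 2 WT libraries differed by up to 30.5-fold, for NPPA, and TBX5, CSRP3 and TRDN were at 0 in library 1 and at 0.484, 0.212 and 0.635 CPM in library 3.

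The values of the other heart genes in this comparison were large but did not pass. NKX2-5 had 4.64 (SE 1.40, adjusted p 0.0626) and NPPA 4.62 (SE 1.79, adjusted p 0.154). MYH6 went from 5.93 and 8.98 CPM to 38.7, 50.6 and 185 CPM, with 3.62 (SE 1.13, adjusted p 0.0720). ACTC1 had 3.14 (SE 1.33, adjusted p 0.198). Thus the groups of MYH6 and NKX2-5 did not overlap, and the adjusted p values stayed above the threshold.

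The same direction held against the other knockouts and in the ISL1-labelled groups, in comparisons that were added after the values had been seen and that share the ISL1-/- libraries. Against BFP-labelled PAX6-/- (2.46% of all genes called, 0.757% higher) and BFP-labelled PDX1-/- (5.07% called, 2.73% higher), TTN, PLN and CKM rose in both, CKM by 3.52 (SE 0.79, adjusted p 0.0195) and 3.57 (SE 0.80, adjusted p 0.0134) and PLN by 2.99 (SE 0.72, adjusted p 0.0294) and 2.73 (SE 0.71, adjusted p 0.0318). PLN was at 17.5, 25.9 and 30.2 CPM in BFP-labelled ISL1-/- and at most 5.58 CPM in the 8 other BFP-labelled libraries. Among ISL1-labelled libraries, ISL1-/- against WT had MYH6 (5.00, SE 1.23, adjusted p 0.0292), MYH7 (3.42, SE 0.81, adjusted p 0.0250) and NKX2-5 (7.07, SE 1.84, adjusted p 0.0397) higher, where 3.72% of all genes were called and 1.02% higher, and MYH6 was at 17.8, 29.2 and 135 CPM against 2.44 and 1.36 CPM. NKX2-5 was at 0.479 to 3.85 CPM in ISL1-labelled ISL1-/- and at 0 and 0.021 CPM in ISL1-labelled WT. MYH7 was at 0.627 to 1.08 CPM against 0.0417 and 0.105 CPM. In these WT libraries the limit of 3 counts is 0.063 and 0.0625 CPM. Both genes are thus below or near that limit in WT, and the sizes of their changes are uncertain. Among ISL1-labelled libraries all those of ISL1-/- lay above WT for 18 of 31 genes (25.2% of all genes). Without library 3 of BFP-labelled ISL1-/- none of the 31 was called against either knockout; against PAX6-/- 0 were called without its library 1 and 1 without its library 2, and against PDX1-/- 0 without its library 1 or 3, 1 without its library 2 and 6 without library 3 of ISL1-labelled PAX6-/-. The count in ISL1-labelled libraries was 0 without either WT library or without library 3 of ISL1-/-, 1 without library 2 of ISL1-/-, 10 without library 3 of ISL1-labelled PAX6-/- and 12 without library 4 of ISL1-labelled PDX1-/-.

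**Figure D4:**
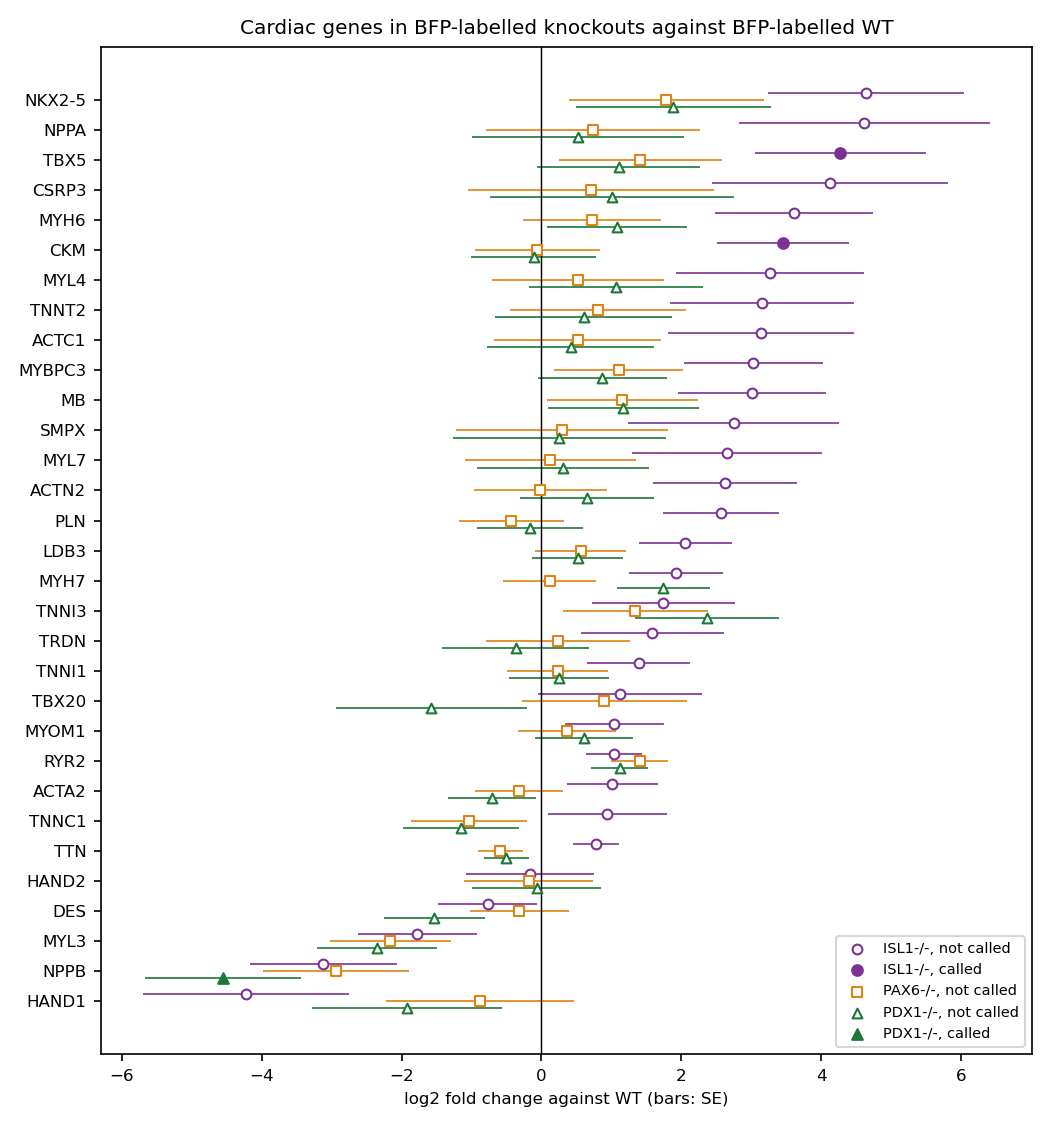
Log2 fold change of the 31 tested cardiac genes in BFP-labelled ISL1-/- (circles), PAX6-/- (squares) and PDX1-/- (triangles) against BFP-labelled WT, filled where called, with bars giving the standard error. The circles lie right of the other symbols for most genes, with CKM (3.46) and TBX5 (4.28) called, and NPPB and HAND1 lie left of 0 in all 3 knockouts.

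Markers of other cell types moved in the same comparison. Of the 5 islet hormones GCG, SST and PPY fell, and the median log2 fold change of the list was -7.82, with summed levels of 1837 to 2504 CPM in BFP-labelled ISL1-/- and 43600 to 57190 CPM in BFP-labelled WT. All 6 epithelial markers had values below 0 (5 at an unadjusted p under 0.05, 1 called), and the summed levels were 2839 to 3042 and 5118 to 5170 CPM. The median was -1.61 over 7 tested endothelial markers (3 at an unadjusted p under 0.05, 0 called) and -0.97 over 11 smooth muscle markers, of which TAGLN fell. Their part in the cardiac gene values was not tested.

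The calls between ISL1-/- and WT also moved with single libraries and settings. In BFP-labelled ISL1-/- against WT the count was 2 of 31, and 0 without library 2 or 3 of ISL1-/- or library 1 of WT, 1 without library 1 of ISL1-/- or library 3 of WT, 4 without library 3 of ISL1-labelled PAX6-/- and 9 without library 4 of ISL1-labelled PDX1-/-. Without both of the latter it was 19, of which 16 higher, and a fit on the 5 libraries compared gave 21, of which 18 higher. DESeq2 called 11 and limma 19. Within the library number, with number as a block, 20 were called, 17 higher and 3 lower, at a median of 2.19.

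BFP-labelled PAX6-/- and PDX1-/- differed less from WT in these genes. In PAX6-/- edgeR called 0 of 31 genes (5.51% of all genes), 3 had an unadjusted p under 0.05, DESeq2 called 1 and limma 3, and the median was 0.29. RYR2 came nearest, with 18.4, 16.5 and 16.5 CPM against 5.65 and 7.25 CPM (1.41, SE 0.41, adjusted p 0.0527). The count was 1 without library 3 of ISL1-labelled PAX6-/- and 3 without library 4 of ISL1-labelled PDX1-/-. In PDX1-/- (9.68% of all genes called, 5.65% lower) the median was 0.42 and NPPB, brain natriuretic peptide, fell by 4.55 (SE 1.12, adjusted p 0.0150), from 14 and 42.3 CPM to 0.997, 1.09 and 1.51 CPM. This call was lost without any 1 of the 3 PDX1-/- libraries or without library 3 of WT, and 3 genes were called without library 4 of ISL1-labelled PDX1-/-.

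NPPB belongs to a handful of genes that did not follow ACTC1. Over the 21 libraries r with ACTC1 was -0.24 for DES, -0.25 for MYL3, -0.19 for NPPB, -0.38 for HAND2 and -0.52 for HAND1. Their r with the mean of the other members over 21 libraries was 0.01 for DES, -0.01 for MYL3, -0.03 for NPPB, -0.13 for HAND2 and -0.37 for HAND1, while it was 0.95 for MYL7, 0.92 for NPPA and 0.91 for ACTC1. MYL3, the ventricular essential light chain that slow skeletal muscle shares, was at 49.5 and 29.7 CPM in BFP-labelled WT, 27.2 and 33.4 CPM in ISL1-labelled WT and 155 CPM in library 4 of ISL1-labelled PDX1-/-, and at 3.40 to 18.6 CPM in the other 16 libraries. HAND1 was at 3.14 to 23.6 CPM in the 4 WT libraries and at 34.9 CPM in that same PDX1-/- library. It was at most 0.824 CPM in the 6 ISL1-/- libraries. In BFP-labelled PAX6-/-, ISL1-labelled PAX6-/- and BFP-labelled PDX1-/- it overlapped WT, at 0.643 to 13.2, 0.601 to 5.33 and 0.393 to 8.04 CPM.

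Against BFP-labelled WT these genes had negative values in BFP-labelled ISL1-/-, none of which passed. They were -4.22 for HAND1 (SE 1.47, adjusted p 0.109), -3.12 for NPPB (SE 1.05, adjusted p 0.0961) and -1.77 for MYL3 (SE 0.85, adjusted p 0.269). MYL3 and NPPB lay below both WT libraries in all 3 knockouts with BFP. The 6 marker genes of epicardium and mesothelium had summed levels of 6.378 to 51.34 CPM in WT, 25.07 CPM in library 4 of ISL1-labelled PDX1-/- and 1.296 to 2.66 CPM in ISL1-/-, and 11 smooth muscle markers 176.6 to 272.6, 421.6 and 107.3 to 139.8 CPM. In BFP-labelled PAX6-/-, ISL1-labelled PAX6-/- and BFP-labelled PDX1-/- the epicardial sums were 2.033 to 23.46, 3.22 to 14.15 and 0.5901 to 17.93 CPM. The smooth muscle sums there were 83.55 to 147.4, 101.6 to 120.1 and 59.94 to 92.31 CPM. The part of these markers in the levels of MYL3, NPPB and HAND1 was not tested.

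The balance between MYH6 and ACTC1 was alike across the 6 ISL1-/- libraries and lay elsewhere in the 2 libraries that stand apart, library 3 of ISL1-labelled PAX6-/- and library 4 of ISL1-labelled PDX1-/-. The ratio of their counts was 1.16 to 1.56 in the ISL1-/- libraries, whose ACTC1 level spans 14.6 to 147 CPM. In the PAX6-/- library the ratio was 0.102, against 0.414 to 3.86 in the 19 libraries other than it and library 4 of ISL1-labelled PDX1-/- (0.238). That library had 96.2 CPM of ACTC1, 66.5 of MYL7 and 14.2 of MYL4, close to ISL1-labelled ISL1-/- library 3 (116, 73.2 and 13.9 CPM), yet only 9.79 CPM of MYH6 (135), 0.671 of TNNT2 (8.73), 1.55 of MYBPC3 (15.4) and 0.126 of CKM (7.15). TNNI1 (18.5 CPM), TNNI3 (0.881 CPM) and SMPX (3.33 CPM) had their highest value of all libraries there. Ratios to ACTC1 were thus below those of the 19 others for MYH6, TNNT2 (0.00697 against 0.0197 to 0.210), ACTN2 (0.0429 against 0.128 to 0.495), MYBPC3 (0.0161 against 0.132 to 0.813), CKM (0.00131 against 0.00658 to 0.355) and PLN (0.117 against 0.145 to 1.79), and within their range for MYL7, MYL4, TNNI1, SMPX and NPPA. Library 4 of ISL1-labelled PDX1-/- was also below the 19 others for MYH6, ACTN2 (0.0962) and MYBPC3 (0.0628), but not for TNNT2, CKM or PLN. The mitochondrial share of these 2 libraries was 3.16% and 3.84% and their TMM factors were 0.888 and 0.7, the lowest of the 21, and the part of either in the ratios was not tested.

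**Figure D5:**
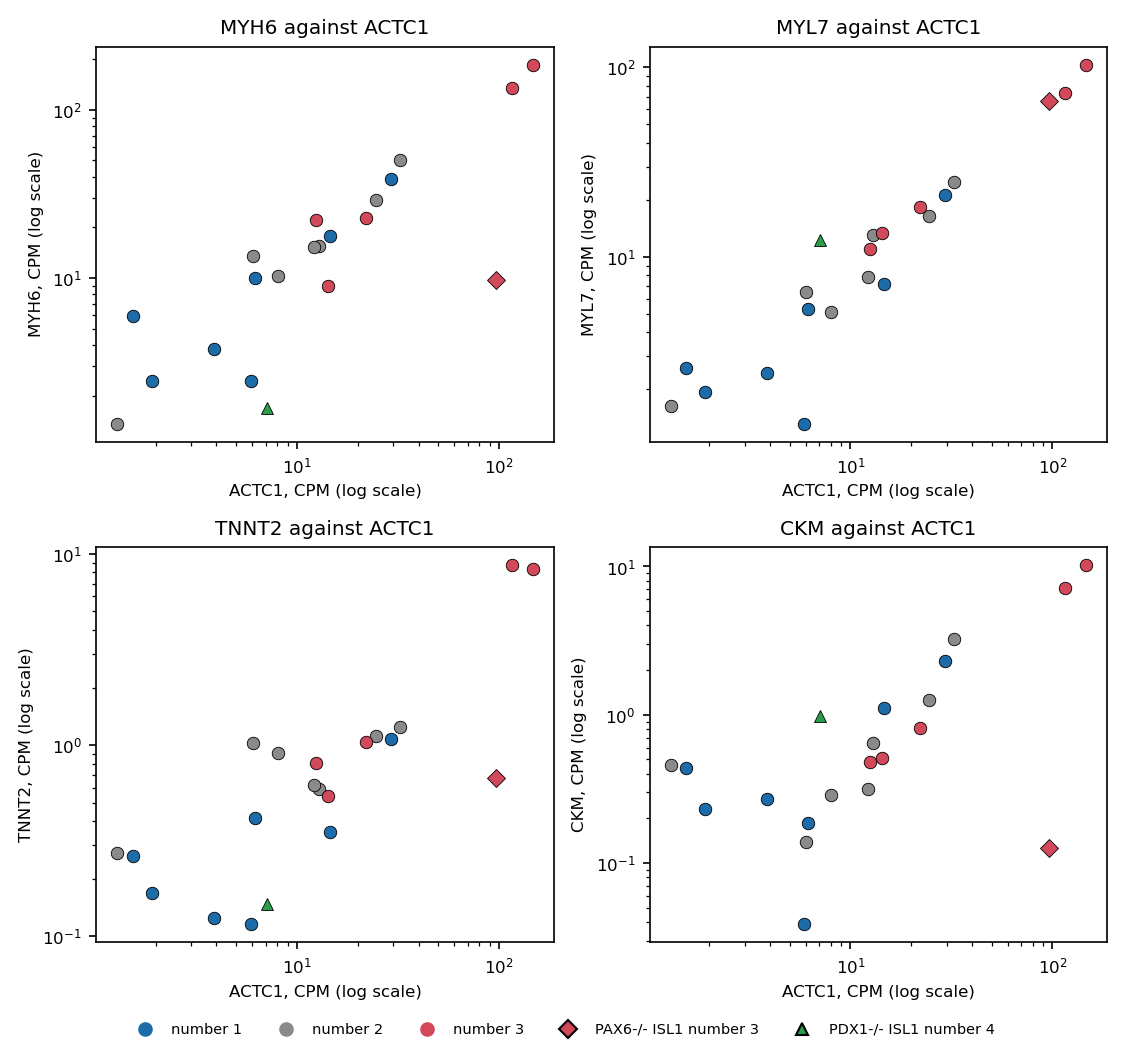
Level of MYH6, MYL7, TNNT2 and CKM against that of ACTC1 in each library, in CPM on log axes, with colour giving the number in the library name. In library 3 of ISL1-labelled PAX6-/- (diamond) MYL7 lies with the other libraries of high ACTC1, while MYH6 (9.79 CPM), TNNT2 (0.671 CPM) and CKM (0.126 CPM) lie far below them; the triangle is library 4 of ISL1-labelled PDX1-/-.

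ISL1-labelled and BFP-labelled libraries of one genotype were compared to ask what the ISL1 vector did to these genes. In WT edgeR called 0 of 31 genes (0.027% of all genes), 3 had an unadjusted p under 0.05, DESeq2 called 0 and limma 1, and the median was -0.46. In ISL1-/- 0 were called (0.382%) and 0 had an unadjusted p under 0.05, DESeq2 called 0 and limma 1, and the median was -0.59 with 29 of 31 values below 0. ACTC1 was at 29.3, 32.5 and 147 CPM with BFP and 14.6, 24.6 and 116 CPM with ISL1 in these ISL1-/- libraries 1 to 3, so each numbered library was lower with ISL1, although the groups overlapped. In PAX6-/- 0 were called (0.355%), 3 had an unadjusted p under 0.05, and DESeq2 and limma each called 1, which was TTN. TTN was at 7.97, 9.82 and 8.97 CPM with BFP and at 20.5, 25.3 and 15.6 CPM with ISL1 in PAX6-/- (1.20, SE 0.29, adjusted p 0.110). Same-numbered PAX6-/- libraries deviated together. In an edgeR fit of all 21 libraries, with a block for the number shared by all groups, TTN rose by 1.22 (adjusted p 0.0237) in PAX6-/-. NPPB fell there by 1.29 (adjusted p 0.0432), and the same fit also called NPPB for the vector in WT and in ISL1-/-. In PDX1-/- that fit leaves only library 2 of the ISL1-labelled group to compare, and its value for NPPB was -2.91. Without library 4 of ISL1-labelled PDX1-/- the unblocked fit called 1 gene in PAX6-/-.

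In PDX1-/- 3 of 31 genes were called, 2 higher and 1 lower, where 12.5% of all genes were, 8.19% higher and 4.33% lower. MYL3 rose by 3.36 (SE 0.89, adjusted p 0.0220) and NPPB by 4.21 (SE 1.11, adjusted p 0.0216), while MYH7 fell by 2.47 (SE 0.70, adjusted p 0.0294). MYL3 was at 3.97 and 155 CPM in ISL1-labelled libraries 2 and 4 against 6.53 to 8.56 CPM with BFP, and NPPB at 0.123 and 44.3 CPM against 0.997 to 1.51 CPM, so both rises rest on library 4. Without it no gene was called and the values were -0.94 for MYL3 (adjusted p 0.653) and -3.23 for NPPB (adjusted p 0.0949). MYH7 was at 0.388 and 0.119 CPM against 1.38 to 1.62 CPM, with both ISL1-labelled libraries below all BFP-labelled ones. Leaving out any BFP-labelled PDX1-/- library also left 0 calls, and leaving out ISL1-labelled library 2 gave 7.

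No difference in the vector effect between a knockout and WT was called for the 31 genes in edgeR with TMM scaling. In ISL1-/- 0 were called and 0 had an unadjusted p under 0.05 (0.00386% of all genes called), in PAX6-/- 0 and 2 (0%), and in PDX1-/- 0 and 3 (1.19%). NPPB came nearest in PDX1-/- against WT, with a difference of 6.96 (SE 1.67, adjusted p 0.0506). This value rests on library 4 of ISL1-labelled PDX1-/-: without it the vector effect on NPPB in PDX1-/- was -3.23, against -2.75 in WT with all libraries, and 0 genes were called. DESeq2 called MYL3 and NPPB there and no gene in the other tests, and limma called 0 in all of them. For PDX1-/- against WT edgeR called 1 gene without library 3 of ISL1-labelled PAX6-/- and 3 without library 2 of ISL1-labelled PDX1-/-, 1 with RLE size factors (NPPB) and 2 with no filter on low counts (MYL3 and NPPB).

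Some genes share sequence or position with others. The strand setting of the counting is not given in the sources used here. PLN lies within CEP85L on the opposite strand (376 to 1010 counts per library), TTN opposite TTN-AS1 (97 to 289), ACTA2 opposite FAS (236 to 982) and STAMBPL1 (251 to 695), MYL3 opposite PTH1R (15 to 535), NPPA opposite CLCN6 (725 to 3148) and HAND2 opposite HAND2-AS1 (7 to 173). TTN also overlaps CCDC141 on the same strand (73 to 744). For TNNI3, 20.2% of 50-base windows are shared with another annotated transcript, for TBX20 16.9%, and for MYH7 14.5% with MYH6. Levels of these genes are uncertain to that extent.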

How the data were processed

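The authors deposited raw read counts per gene for 21 libraries, made with STAR 2.7.11b and featureCounts 2.1.1 on GRCh38, per the submitters' processing notes; the annotation release, strand setting and handling of multimapping reads are not given in the sources used here. Libraries were SMART-Seq v4 RNA-seq of sorted cells, per the labels' protocols. The 33 genes and the marker lists were chosen with earlier results of these data known. All 33 genes may be named. From other lists, up to 5 genes each may be named that differ between the numbers, filled up by the highest mean levels where fewer differ. The skeletal muscle regulators and the 10 genes most alike by Pearson's r were added.

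From the counts, CPM were computed with TMM scaling. Genes passed edgeR's filterByExpr by group (minimum count 10, minimum total 15), which left 25884 of 62699 genes; 3 lines of 1 broken entry were left out. edgeR 4.0.16 (R 4.3.3) quasi-likelihood tests used 1 model over 8 groups (13 residual degrees of freedom), and for the numbers a model of group and number (10 residual degrees of freedom), in which the single number 4 has its own level. P-values were Benjamini-Hochberg adjusted over all tested genes, called under 0.05. DESeq2 1.42.0 and limma 3.58.1 (voom with sample quality weights) were alternatives. The functions were tested on simulated data.

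Same-numbered libraries of the 2 vectors deviated together in PAX6-/- (r 0.155, 0.391 and 0.333 over genes). The numbers were taken as pairs there, from this check and not from the labels. The block fitted was a set of number terms shared by all 21 libraries and not particular to PAX6-/-. Between all groups, the median r was 0.06 for same-numbered libraries and -0.03 for the others. Replicates of a group are described as biological, and none were identical. Totals of 36.8 M to 60.2 M counts put the limit of 3 counts at 0.0464 to 0.0907 CPM, covering counting error only.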

Additional observations from a re-analysis of the deposited data

How the results depend on the processing

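Counts of the 31 tested genes called changed with the method in most comparisons, and beyond the number of samples or genes in a fit the cause was not tested. In the order BFP-labelled ISL1-/- against WT, against PAX6-/- and against PDX1-/-, then BFP-labelled PAX6-/- and PDX1-/- against WT, then ISL1-labelled ISL1-/- against WT, edgeR's counts of 2, 3, 3, 0, 1 and 3 became 11, 6, 9, 1, 3 and 15 in DESeq2, 13, 8, 11, 3, 2 and 17 with no filter on low counts, 19, 13, 15, 3, 6 and 12 in limma, 21, 11, 21, 3, 8 and 22 in a fit of the compared groups alone, and 19, 11, 15, 3, 4 and 18 without both libraries that stand apart, a setting chosen after seeing the data. With the library-name number as a replicate block they were 20, 15, 17, 3, 5 and 16, and with the title number as a block 4, 11, 7, 0, 1 and 7. Leaving out 1 library gave 0 to 9, 0 to 3, 0 to 6, 0 to 3, 0 to 3 and 0 to 12. Between the numbers, the joint test, 3 against 1 and 3 against 2 went from 5, 5 and 0 to 20, 22 and 11 in DESeq2, 19, 20 and 9 with no filter, 21, 24 and 19 in limma and 10, 16 and 3 without both libraries that stand apart. The joint test and 3 against 1 gave 0 and 0 with the title number, 0 and 1 in knockout libraries only and 0 and 0 without the ISL1-/- libraries, the last chosen after seeing the data. Leaving out 1 library gave 0 to 12, 0 to 16 and 0 to 11, and 0 to 0 for 2 against 1. For the vector in WT, ISL1-/-, PAX6-/- and PDX1-/-, counts of 0, 0, 0 and 3 became 1, 1, 1 and 0 in limma, 1, 1, 2 and 1 with the library-name number as a block and 1, 1, 1 and 0 without both libraries that stand apart. In fits of the compared groups alone the vector gave 3 in WT and 0 in PDX1-/-, DESeq2 gave 1 in PAX6-/-, and the title number as a block gave 5 in PDX1-/-. Leaving out 1 library gave 0 to 0, 0 to 0, 0 to 1 and 0 to 7. For the difference of the vector effect between PDX1-/- and WT, 0 became 2 in DESeq2, 1 with RLE size factors and 2 with no filter, and 0 to 3 when leaving out 1 library; for ISL1-/- and PAX6-/- it stayed at 0 to 0. The vector effect in PDX1-/- reversed for MYL3 (3.36) and NPPB (4.21) without library 4 of ISL1-labelled PDX1-/- (-0.94 and -3.23), without both libraries that stand apart (-0.94 and -3.23) and with the library-name number as a block (-1.09 and -2.91), which gives the single number 4 its own level, so that only library 2 is left to compare; without 1 library each they ran from -0.94 to 4.33 and from -3.23 to 5.21. In ISL1-/- the numbers were taken as a hint only, with r of 0.183, 0.099 and 0.293 between same-numbered libraries. Each was the best match of its library, as was also so in PAX6-/-, where the numbers were taken as pairs. The 1 gene called for the vector in ISL1-/- with the library-name number as a block was NPPB. WT and PDX1-/- share 1 number between vectors (r -0.04 and -0.21). Of 264 group means, 259 moved by less than 1 SD with CPM by total count.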
